A study of Rattus norvegicus with 3 samples.

Results

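The glucocorticoid receptor, 7 genes that it is known to induce and the FOXO transcription factors Foxo1 and Foxo3 were followed in rat soleus, the slow postural muscle of the calf. These 10 genes are among 14506 rat genes that had a probe set with exactly 1 gene symbol on Affymetrix Rat Gene 1.0 ST arrays. The rule for choosing a probe set was the brightest mean over the 3 arrays, but each of the 10 genes had only 1 probe set, so brightness chose nothing. All 10 passed the limit on low values (a mean of 5.72, on the log2 scale of the deposited values, the scale of every value here) and were compared with the 10154 genes that passed it. The genes were chosen by their known roles with their differences on these same arrays already in view, so those differences are given as descriptions.

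The rats, of a strain labelled Brown, were 7 weeks old and were kept under a light/dark cycle of 12 h. All rats, controls included, were irradiated continuously for 2 weeks and absorbed 50 mSv. Ct rats had no other treatment, DN rats lost the nerve supply of the muscle, and TS rats were kept in tail suspension, which takes the load off the hind limbs. All animals were anaesthetised with diethyl ether before dissection, and each array carried RNA pooled from 6 rats. With 1 array per group there was no spread between samples, no test was possible, and every value below describes 1 pool. No label states the hour of dissection or a blood corticosterone level, and no unirradiated pool was analysed here.

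Glucocorticoids enter the muscle fibre and bind their receptor, which chaperones hold ready in the cytoplasm. The bound receptor moves to the nucleus and switches on genes that brake growth signalling, favour amino acid use and feed back on the receptor itself. FOXO factors are kept out of the nucleus by the kinase Akt when insulin and growth factor signals are strong, and in the nucleus they switch on ubiquitin ligases and autophagy genes. Both arms are known for their part in muscle wasting.

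Among the 10154 genes, the level in TS lay 0.13 above that in Ct when the medians of the arrays were compared, and the level in DN lay 0.01 above Ct. Gene by gene, the median difference from Ct was 0.02 in TS and 0.00 in DN. Centring each array on its median takes the 0.13 from every TS minus Ct difference. All 8 slow fibre markers passed the limit on low values, but so did all 10 fast fibre markers, so passing it does not identify the muscle. The slow myosin gene Myh7 read 13.62 in Ct, 13.06 in DN and 13.24 in TS. RMA summaries of 3 arrays often return the same value more than once, and 20.5% of the genes compared had 1 value on all 3 arrays.

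Promoter windows of the RefSeq annotation (build GRCr8) were searched because several of the 10 genes differed in the same direction between arrays. Windows were found for 7 of the 10 genes, 12 windows in all, and Zbtb16, Cebpd and Foxo3 had no entry. The 250 bases before each start site were searched on both strands. The receptor's palindromic response element, taken as GNACA and TGTNC with 3 bases between them, was in 0 of the 12 windows and in 0.373% of all 33469. A single arm of it, AGAACA, was in 0 of the 12 and in 17.5% of all windows. At a share of 0.373%, 12 windows would rarely hold the full element, and sequence beyond the 250 bases was not searched. These counts of 0 therefore do not show that the genes lack receptor sites. The FOXO site GTAAACA was in 1 window, that of a Tsc22d3 start site, and in 3.21% of all. The E-box CACGTG, the site of clock and related factors, was in the Klf15 window and in 5.59% of all. No match overlapped another. The 2 windows with a match are printed 5′ to 3′ with the matching letters in capitals. The Tsc22d3 window is chrX:109010035-109010284 on the minus strand, 1 of 3 windows of that gene, and the Klf15 window is chr4:124522765-124523014 on the plus strand. In the former the match reads as the reverse complement, TGTTTAC.
Tsc22d3: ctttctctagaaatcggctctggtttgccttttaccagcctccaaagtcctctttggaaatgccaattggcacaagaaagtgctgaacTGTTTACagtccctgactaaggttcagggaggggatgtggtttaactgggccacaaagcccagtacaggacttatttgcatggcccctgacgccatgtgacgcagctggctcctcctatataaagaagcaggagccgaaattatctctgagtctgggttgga
Klf15: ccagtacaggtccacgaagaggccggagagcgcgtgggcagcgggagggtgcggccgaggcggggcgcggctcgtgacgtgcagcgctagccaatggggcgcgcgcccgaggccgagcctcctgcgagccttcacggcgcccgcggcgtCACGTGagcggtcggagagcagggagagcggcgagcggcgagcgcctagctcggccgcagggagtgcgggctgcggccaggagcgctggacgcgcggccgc
A match is a run of letters and not a bound site, and the arrays do not separate the start sites of Tsc22d3.

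The receptor gene Nr3c1 read 10.30 in Ct, in DN and in TS. It is one of the genes with an identical value on all 3 arrays, so its difference of 0.00 in each comparison does not show that its level was equal. Under centring of each array on its median, Nr3c1 in TS stood at -0.13 against Ct.

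Of the 7 genes known to be induced by the receptor, 6 read higher in suspended than in loaded soleus, led by Fkbp5, Zbtb16 and Klf15. Of all 10154 genes, 5340 read higher in TS than in Ct and 2308 lower. At the limit of 1.5-fold (0.58 on the log2 scale), 3 of the 10 genes were higher in TS than in Ct and 0 were lower. Over all genes compared, 5.89% were higher and 2.68% lower by that limit. By 2-fold, 1 of the 10 (Fkbp5) was higher, as were 1.37% of all genes, and 0 were lower, as were 0.689%. The median of the 10 differences was 0.37, beside 0.02 over all genes. Since the genes were chosen with such results known, nothing is read from the gap between these shares.

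Fkbp5 encodes a co-chaperone that lowers the receptor's affinity for hormone and forms a feedback loop. It read 7.72 in Ct, 7.65 in DN and 8.94 in TS. The suspended pool stood well above both others, which lay close together. The difference was 1.22 for TS minus Ct, or 2.33-fold, and 0.739% of all genes compared were as high or higher. For DN minus Ct it was -0.08.

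Zbtb16 encodes the zinc finger repressor PLZF. It read 9.53 in Ct, 8.56 in DN and 10.28 in TS, so Ct lay between the suspended pool above and the denervated pool below. TS minus Ct was 0.75 (1.68-fold) and DN minus Ct was -0.97 (1.96-fold lower). In these comparisons 3.16% of genes were as high or higher and 2.41% as low or lower.

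Klf15 encodes a zinc finger factor that raises the breakdown of branched-chain amino acids in muscle. It read 6.86 in Ct, 6.56 in DN and 7.58 in TS. The order was again TS, Ct, DN, but DN minus Ct was only -0.30, and TS minus Ct was 0.72. All 3 values of Klf15 are dim, within 2 log2 units of the limit on low values, where the size of a difference is less certain. Centring the arrays brought TS minus Ct of Klf15 to 0.59, just past the limit.

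**Figure D1:**
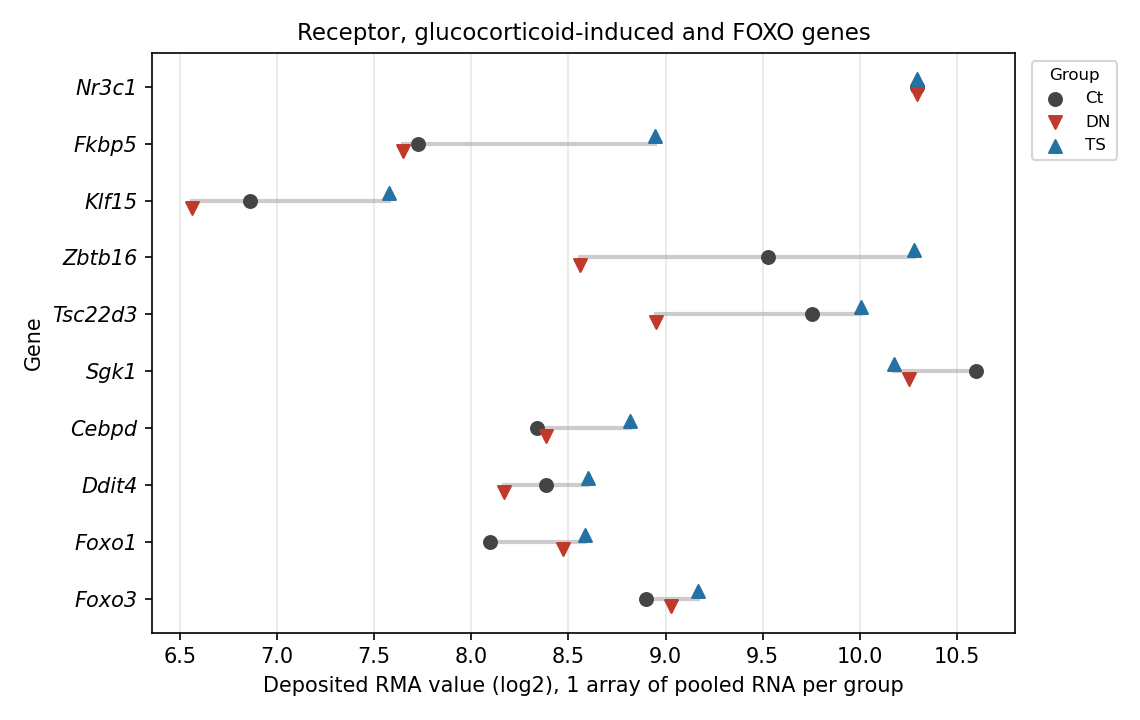
Deposited RMA values (log2, horizontal axis) of the 10 genes (vertical axis), 1 point per array: Ct as circles, DN as downward triangles, TS as upward triangles, with a grey bar over the range and points shifted vertically to separate them. Zbtb16 spans the widest range, from 8.56 in DN to 10.28 in TS, and the 3 points of Nr3c1 coincide at 10.30; levels of different genes are not comparable.

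Tsc22d3, which encodes the leucine zipper protein GILZ, differed mainly on the denervated side. It read 9.75 in Ct, 8.95 in DN and 10.01 in TS. DN minus Ct was -0.80, a 1.74-fold lower value that 3.57% of genes matched or passed, whereas TS minus Ct was 0.26. Zbtb16 and Tsc22d3 were the 2 of 10 genes past the 1.5-fold limit on the lower side in DN, and 0 were past it on the higher side. Over all genes, 5.53% were lower and 4.93% higher in DN by that limit. By 2-fold 0 of the 10 were higher or lower in DN, beside 2.24% of all genes in each direction. The median of the 10 genes was -0.15 and that of all genes 0.00.

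The remaining glucocorticoid-induced genes stayed under 1.5-fold in both comparisons with Ct. Sgk1, a kinase related to Akt that also phosphorylates FOXO factors, read 10.60 in Ct, 10.25 in DN and 10.18 in TS. It was highest in the control pool, with differences from Ct of -0.34 in DN and -0.42 in TS, and was the 1 gene of the 10 that read lower in TS than in Ct. Cebpd, a basic leucine zipper factor, read 8.34 in Ct, 8.39 in DN and 8.82 in TS, a TS minus Ct difference of 0.48. Ddit4, which encodes the mTOR inhibitor REDD1, read 8.39 in Ct, 8.17 in DN and 8.60 in TS. Its differences from Ct were -0.22 in DN and 0.21 in TS, the latter 0.08 with centred arrays.

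Both FOXO genes read lowest in the control pool. Foxo1 was 8.10 in Ct, 8.47 in DN and 8.58 in TS, with differences of 0.38 for DN and 0.49 for TS against Ct. Foxo3 was 8.90 in Ct, 9.03 in DN and 9.17 in TS, with differences of 0.13 and 0.26. None reached 1.5-fold, and 8.2% of genes were as high or higher than Foxo1 in DN minus Ct. Around the 1.5-fold limit, the nearest genes past it were Tsc22d3 in DN minus Ct and Klf15 in TS minus Ct, and the nearest short of it was Foxo1 in both.

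The denervated pool was also set directly against the suspended one, without the Ct array. A gene that reads in the order TS, Ct, DN must differ more between DN and TS than either pool does from Ct. Zbtb16, Fkbp5, Tsc22d3, Klf15 and Ddit4 had that order, and no other of the 10 genes did. How many of all 10154 genes had it was not counted, so the order is not given as a trait of these genes. Of all genes, 5340 read higher in TS than in Ct, and 2467 lower in DN than in Ct. Zbtb16 was 3.29-fold lower in DN than in TS (-1.72), Fkbp5 2.45-fold lower (-1.30), Tsc22d3 2.08-fold lower (-1.06) and Klf15 2.03-fold lower (-1.02). These 4 of 10 genes were past the 1.5-fold limit, and 0 of 10 were higher in DN. Over all genes, 5.93% were lower and 3.2% higher in DN than in TS by 1.5-fold. All 4 were also past 2-fold, as were 1.74% of genes on the lower side and 1.2% on the higher. Cebpd stood at -0.43 and Ddit4 at -0.43, Foxo3 at -0.14, Foxo1 at -0.11, Nr3c1 at 0.00 and Sgk1 at 0.08. The sign for Foxo1 turned to 0.02 when each array was centred on its median.

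**Figure D2:**
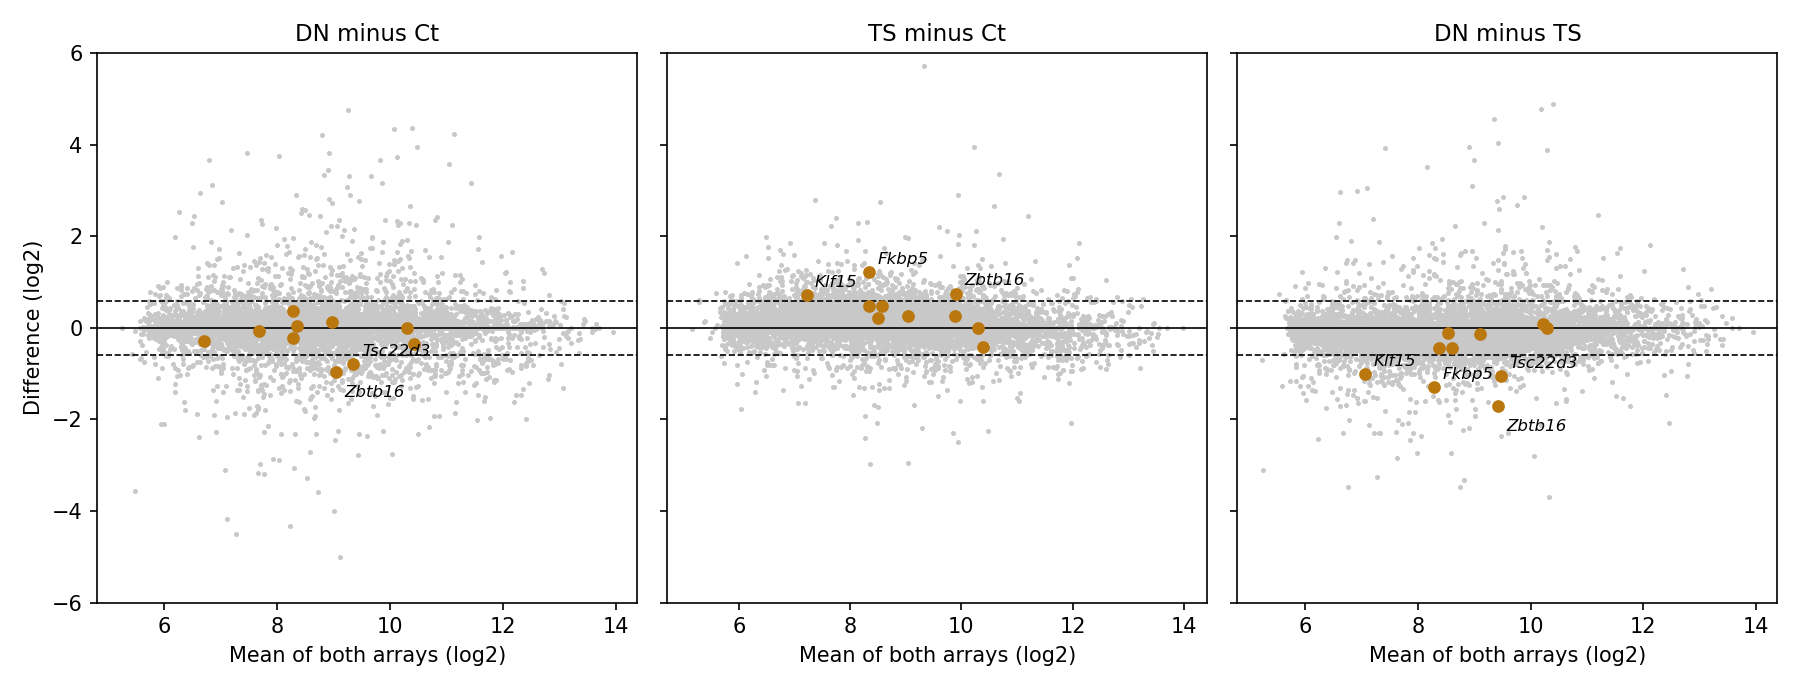
Difference in log2 value (vertical axis) against the mean of both arrays (horizontal axis, log2) for the 10154 genes compared (grey) and the 10 genes followed here (orange, named where past the 1.5-fold limit drawn as dashed lines), in 3 panels (DN against Ct, TS against Ct, DN against TS). Fkbp5, Klf15 and Zbtb16 lie above the upper line in TS minus Ct, and Zbtb16 and Tsc22d3 below the lower line in DN minus Ct.

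Fibre type markers differed between the same pools. All 8 slow fibre markers read lower than Ct in both treated pools, 4 of them by at least 1.5-fold in DN and 2 in TS, and their summed level (as log2) was 16.20 in Ct, 15.63 in DN and 15.86 in TS. Myh7b stood at -1.32 in DN and -1.69 in TS, and Myl2 at -1.13 and -0.94. Of 10 fast fibre markers, 8 were higher by 1.5-fold or more in DN and 9 in TS. Their medians were 1.47 and 1.66, and their sums 14.00 in Ct, 15.26 in DN and 15.59 in TS. Over all genes, 4.93% were higher and 5.53% lower in DN by that limit, and 5.89% and 2.68% in TS. By sign, 2467 of all 10154 genes read lower than Ct in DN and 2308 in TS. The fast myosin gene Myh1 was at 3.73 and 3.94, and Myh4 at 2.02 and 5.72. The part of this fibre difference in the values of the 10 genes was not tested.

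Markers of other cell types also differed. All 11 macrophage markers read higher in TS than in Ct and higher in TS than in DN. Of all 10154 genes, 5340 read higher in TS than in Ct and 5110 higher in TS than in DN. The summed level of the macrophage markers was 12.78 in Ct, 12.91 in DN and 13.27 in TS. The list median was 0.56 in TS relative to Ct and -0.44 in DN relative to TS. Lyz2 (0.11) and C1qa (0.09) exceeded Ct by less than the 0.13 that centring takes from TS. The same holds against DN for Csf1r (-0.07), Lyz2 (-0.08) and C1qa (-0.09). The haemoglobin gene Hbb read 10.94 in Ct, 10.58 in DN and 11.50 in TS, and Alb, the plasma protein gene, 5.97, 6.48 and 8.76. Summed over the 3 genes of the blood and plasma list past the limit on low values, the level was 11.08 in Ct, 10.75 in DN and 11.78 in TS. The sum rests mostly on Hbb. Hbb and Alas2 (7.08, 6.65 and 7.53) read in the order TS, Ct, DN, as did Fkbp5, Klf15, Zbtb16, Tsc22d3 and Ddit4. Alb did not, and was lowest in Ct. The RNA of Alb is not read as a measure of blood or plasma in a pool. Adipocyte markers were higher in both DN and TS by their medians (0.51 and 0.52), whereas their sum was 13.30 in Ct, 13.41 in DN and 12.96 in TS. The sum rests mostly on its brightest genes, Lpl (12.60 in Ct) and Fabp4 (11.38 in Ct). These were the 2 of 9 markers that read lower than Ct, Lpl at -0.43 in DN and -0.90 in TS and Fabp4 at -0.02 and -0.43. The other 7 read higher in both pools. The lymphocyte genes Cd3e, Cd3d and Cd8a were below the limit on low values. The 4 genes of the lymphocyte list past it summed to 9.66, 9.79 and 9.81. That sum rests mostly on Cd4 and Ptprc and is not read as a level of lymphocytes. The part of these cells in the differences of the 10 genes was not tested. In pooled tissue RNA, fewer cells of a type and less RNA per cell cannot be told apart.

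Of the genes that control the hormone inside the cell, 3 differed by at least 1.5-fold in a treated pool. Hsd11b2 encodes the enzyme that turns active glucocorticoid into its inert form. It read 6.13 in Ct, 8.26 in DN and 6.38 in TS, a difference from Ct of 2.13 in DN and of 0.26 in TS. The denervated pool stood alone, although Ct and TS were near the limit on low values. Hsd11b1, whose enzyme restores active hormone, read 9.91 in Ct, 9.72 in DN and 9.01 in TS. It was therefore lowest in the suspended pool, at -0.90 against Ct, and -0.19 in DN. H6pd supplies the cofactor that Hsd11b1 needs in the endoplasmic reticulum, and it read 7.68 in Ct, 9.27 in DN and 8.62 in TS. Both treated pools were above Ct, by 1.59 in DN and 0.94 in TS.

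Chaperones that hold the receptor showed 1 gene past the limit. Fkbp4, the co-chaperone that competes with Fkbp5 and helps the receptor reach the nucleus, read 10.31 in Ct, 9.43 in DN and 10.16 in TS. Its difference was -0.88 in DN and -0.15 in TS. The chaperone gene Hsp90aa1 was at 0.21 and 0.36. Of the co-regulators, Ncoa3 stood at 0.00 in DN and 0.54 in TS and the chromatin remodeller Smarca4 at 0.16 and 0.49. The mineralocorticoid receptor Nr3c2, which binds the same hormone, was at -0.05 in both. Of 20 such genes, 2 were higher by 1.5-fold or more and 1 lower in DN, and 1 was higher and 1 lower in TS. These counts are near the shares over all genes in TS (5.89% and 2.68%) and, on the lower side, in DN (5.53%), where 4.93% were higher. The list medians were 0.01 and 0.11, beside 0.00 and 0.02 over all genes, and the latter became -0.02 with centred arrays.

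**Figure D3:**
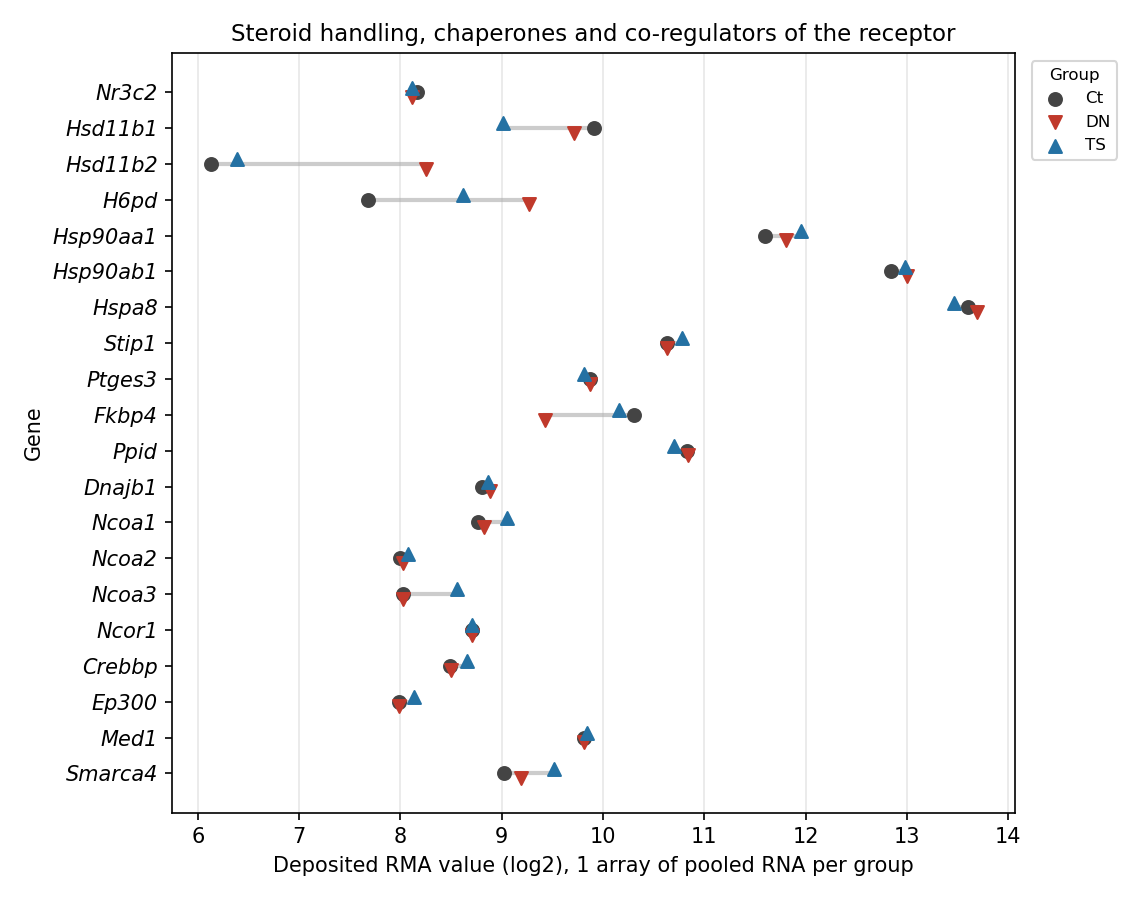
Deposited RMA values (log2, horizontal axis) of 20 genes of steroid handling, receptor chaperones and co-regulators (vertical axis), 1 point per array: Ct as circles, DN as downward triangles, TS as upward triangles, with a grey bar over the range. Hsd11b2 in DN (8.26) stands apart from Ct (6.13) and TS (6.38), and Hsd11b1 is lowest in TS (9.01).

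Further genes known to be induced by glucocorticoids did not share a single direction. Of 34 listed, 32 were measured and 29 passed the limit on low values. In DN 7 of them were at least 1.5-fold higher and 4 lower than in Ct, and in TS 6 were higher and 1 lower. The shares over all genes were 4.93% higher and 5.53% lower in DN, and 5.89% and 2.68% in TS. The medians were 0.02 in DN and 0.11 in TS, the latter -0.02 with centred arrays. The cell cycle inhibitor gene Cdkn1a, the metal-binding proteins Mt1 and Mt2A (near-identical genes that may share signal) and Angptl4 were higher in both. Angptl4, which encodes an inhibitor of lipoprotein lipase, read 5.35 in Ct, 7.64 in DN and 6.92 in TS. Its Ct value lay below the limit of 5.72.

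Several of these genes differed in only 1 of the treated pools by the 1.5-fold limit. Pdk4, the kinase that shuts off pyruvate dehydrogenase, read 11.26 in Ct, 10.92 in DN and 12.62 in TS, so that it stood at 1.36 in TS and -0.34 in DN. Bcl6, a repressor, was at 0.81 in TS and 0.23 in DN. In the other direction, Pik3r1, the regulatory subunit of phosphoinositide 3-kinase, was at 1.38 in DN and 0.56 in TS, and Ampd3, AMP deaminase, at 1.00 and 0.43. The 4 genes lower in DN were Sesn1 (-0.93), the phosphatase Dusp1 (-0.87), Fam107a (-0.83) and myostatin, Mstn (-0.66). Mstn was also the 1 gene lower in TS, at -0.89. Per1, a clock gene with a known receptor site, stood at -0.09 in DN and 0.06 in TS.

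Set against the suspended pool, Pdk4 (-1.70), Fam107a (-1.07), Sesn1 (-1.01) and Cdkn1c (-0.67) were lower in the denervated pool by at least 1.5-fold. Cdkn1a (1.74), Rhob (1.07), Mt1 (0.83), Pik3r1 (0.82) and Angptl4 (0.72) were higher. The list median for DN minus TS was 0.00.

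No FOXO target gene was at least 1.5-fold lower in either treated pool, and the ubiquitin ligases differed unevenly. That count of 0 became 1 in DN with a loess trend removed or with the mean of probe sets. Sod2 fell just short of the limit in DN, at -0.576 (1.49-fold), and Bnip3 stood at -0.55 in DN and -0.39 in TS. By sign alone, 14 targets read higher and 7 lower than Ct in DN, and 16 higher and 9 lower in TS. Of all 10154 genes, 3332 read higher and 2467 lower in DN, and 5340 higher and 2308 lower in TS. Of 27 genes measured above the limit on low values, 7 were higher by 1.5-fold or more in DN and 0 were lower, beside 4.93% and 5.53% of all genes. The stress-response gene Gadd45a stood at 3.15, the ligase genes Fbxo31 and Fbxo30 at 1.12 and 1.09, and Txnip, an inhibitor of glucose uptake, at 0.86. Sesn3 (0.76), Ccng2 (0.67) and the lysosomal protease gene Ctsl (0.67) completed the 7, and Sesn3 and Ccng2 read -0.03 and -0.27 in TS. In TS 6 genes were higher and 0 lower, beside 5.89% and 2.68% of all genes, with Gadd45a at 1.35, Ctsl at 0.66, and Fbxo32, Psmd11 and Txnip each at 0.65. Most of those 6 lay close to the limit: under centring of the arrays only 1 remained past it. The atrophy ligase Fbxo32 read 10.77 in Ct, 10.90 in DN and 11.42 in TS, and Trim63 read 11.02, 11.33 and 11.57. Both were highest in TS, the pool in which Foxo1 and Foxo3 were also highest, although centring reverses the margin over DN for Foxo1 and brings that of Foxo3 to -0.01 (DN minus TS). The list medians were 0.08 in DN and 0.03 in TS, and centring turned the latter to -0.10.

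**Figure D4:**
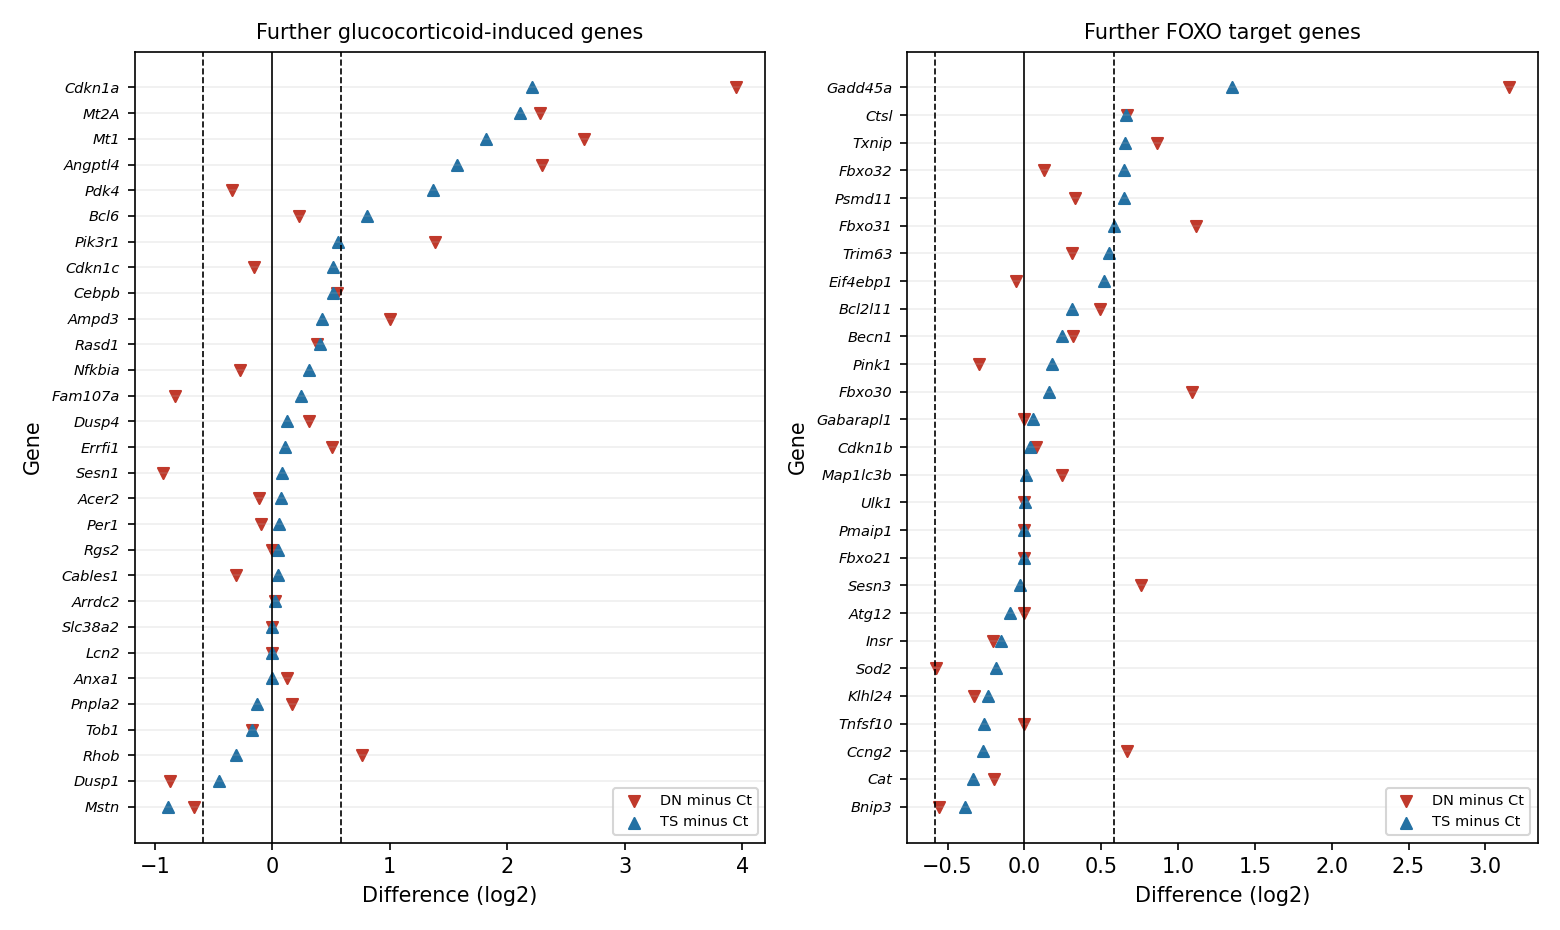
Differences in log2 value (horizontal axes) of DN minus Ct (downward triangles) and TS minus Ct (upward triangles) for 29 further glucocorticoid-induced genes (left) and 27 further FOXO target genes (right), ordered by TS minus Ct; both differences use the same Ct array, and dashed lines mark 1.5-fold. Cdkn1a (3.95 in DN) and Gadd45a (3.15 in DN) lie farthest to the right, and Pdk4 is at 1.36 in TS and -0.34 in DN.

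Close relatives of the 10 genes were mostly under the limit, as were most of all genes. Foxo4 was at 0.10 in DN and 0.34 in TS, Tsc22d1 at 0.11 and 0.38, Tsc22d4 at 0.03 and 0.55, and Cebpa at 0.28 in both. Klf9, itself known to be induced by glucocorticoids, read 9.62 in Ct, 9.48 in DN and 10.07 in TS. Klf2 and Klf4, factors best known from endothelium, were lower in both pools, Klf2 at -1.18 and -0.67 and Klf4 at -0.95 and -0.95. Endothelial markers summed to 12.79 in Ct, 12.41 in DN and 12.57 in TS, and their part in the Klf2 and Klf4 values was not tested. Of 12 relatives past the limit on low values, 0 were at least 1.5-fold higher in either comparison. By the same limit, 3 were lower in DN (Klf2, Klf4 and Fkbp4) and 2 in TS (Klf2 and Klf4). Fkbp4 and Nr3c2 were also counted among the receptor genes above. Over all genes 5.53% were lower in DN and 2.68% in TS.

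Genes of Akt and mTOR control differed in single members. Akt2, the Akt form of insulin action, read 10.74 in Ct, 11.80 in DN and 11.07 in TS, and was the 1 of 16 genes past 1.5-fold higher in DN (1.06). The insulin receptor substrate Irs1 (-0.72) and Sesn1 (-0.93) were the 2 lower. In TS only the receptor Igf1r was past the limit, at 0.61, and it fell short of it under 4 alternatives of scaling. Its ligand Igf1 was at 0.57 in TS and 0.54 in DN, and the mTOR brake Tsc1 at 0.55 and -0.02. Over all genes 4.93% were higher and 5.53% lower by 1.5-fold in DN, and 5.89% and 2.68% in TS. The 1 of 16 higher in each pool is near those shares.

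Amino acid breakdown is part of the known programme of Klf15. Of 14 such genes, 7 were at least 1.5-fold lower in DN and 0 higher, with a median of -0.62; over all genes 5.53% were lower by that limit. Ivd (-0.99), Mccc2 (-0.96) and Dbt (-0.89), enzymes of branched-chain amino acid breakdown in mitochondria, were among them, as was the aminotransferase gene Got1 (-0.97). Bcat2, the mitochondrial branched-chain aminotransferase, read 8.98 in Ct, 8.10 in DN and 9.32 in TS. Prodh, which starts proline breakdown, read 6.45 in Ct, 6.14 in DN and 7.69 in TS. Among the 7 genes that did not pass the limit in DN, Gpt2 read higher than Ct (0.55), Bckdk was equal (0.00), and the others ran from -0.52 (Mccc1) to -0.17 (Gpt). In TS 9 of the 14 read lower than Ct, as did 2308 of all 10154 genes. By the 1.5-fold limit, Prodh was the 1 gene higher (1.24) and Gpt the 1 lower (-0.59), and the list median was -0.15. Over all genes 5.89% were higher and 2.68% lower in TS. Gpt was barely past the limit, and 3 genes were lower by it with centred arrays. Prodh is dim, and with the filter at the 50th percentile 0 genes were higher. The part of Klf15, or of the fibre difference, in the values of these 14 genes was not tested.

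Clock genes were examined because glucocorticoids and the clock act on many of the same genes. Nr1d1 was at 0.82 in DN and 0.97 in TS, and Bmal1 at -0.81 and -0.60. Dbp was at 1.39 in DN and 0.45 in TS, Bhlhe41 at 1.73 and 0.40, and Nfil3 at -1.92 and -0.33. Of 15 such genes, 4 were higher by 1.5-fold or more and 3 lower in DN, and 2 were higher and 1 lower in TS. Over all genes 4.93% were higher and 5.53% lower in DN, and 5.89% and 2.68% in TS. The part of the hour of dissection in the values of the 10 genes was not tested.

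**Figure D5:**
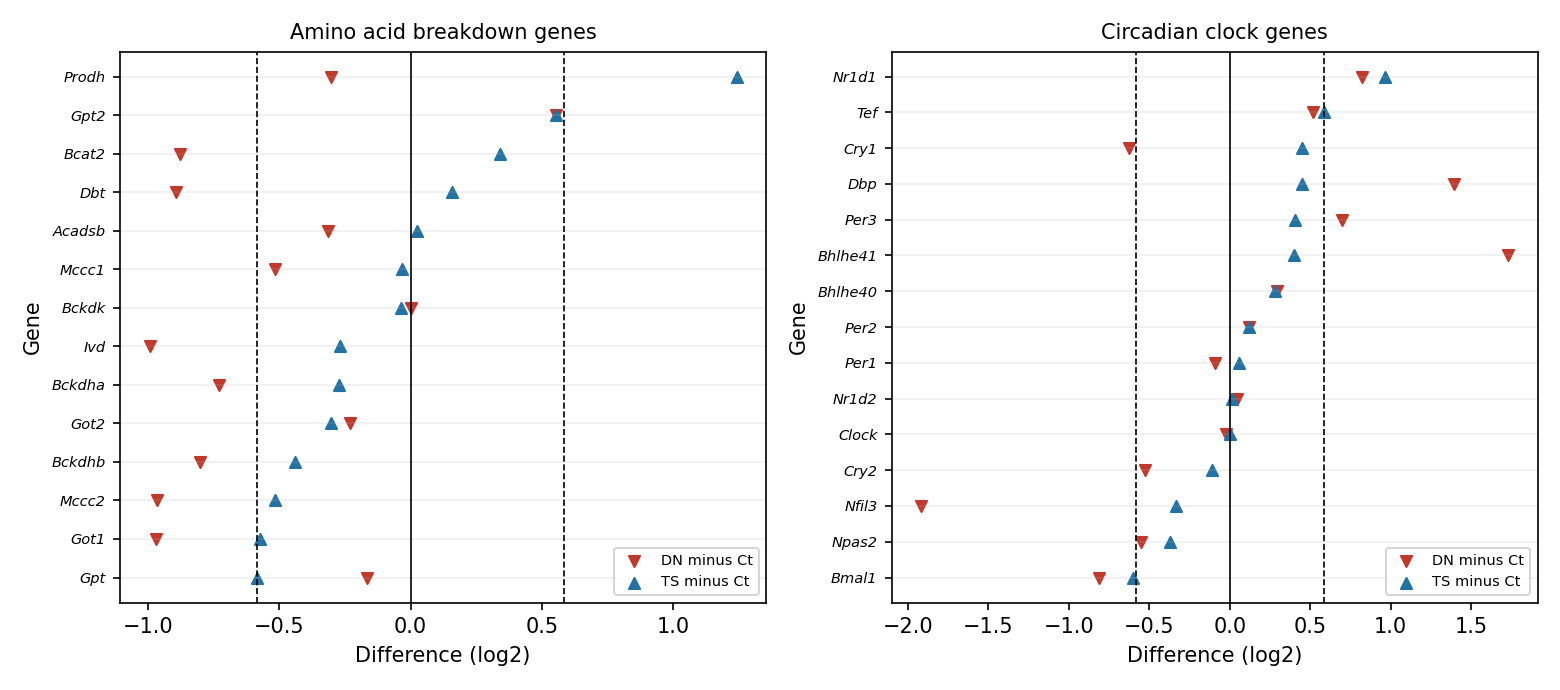
Differences in log2 value (horizontal axes) of DN minus Ct (downward triangles) and TS minus Ct (upward triangles) for 14 amino acid breakdown genes (left) and 15 circadian clock genes (right), ordered by TS minus Ct; both differences use the same Ct array, and dashed lines mark 1.5-fold. Prodh stands at 1.24 in TS, Nfil3 at -1.92 in DN.

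For the 4 genes past 2-fold in any comparison, the 2 genes with the closest pair of differences from Ct were sought by distance on the log2 scale over the 3 arrays. Nearest to Tsc22d3 was Fam107a (distance 0.03), which is also on the list of glucocorticoid-induced genes, followed by the muscle enolase Eno3 (0.08). Nearest to Zbtb16 were Ky (0.09) and the muscle fructose bisphosphatase Fbp2 (0.13). Ky read 7.49 in Ct, 6.51 in DN and 8.33 in TS. Klf15 lay closest to Galnt17 (0.02) and Slc25a38 (0.03), and Fkbp5 to the histone gene H1f5 (0.02) and Gpatch4 (0.03). With 3 arrays such a match describes only 2 differences per gene.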

How the data were processed

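Soleus RNA pooled from 6 rats per group was measured on 1 Affymetrix Rat Gene 1.0 ST array for each of groups Ct, DN and TS; the series text speaks of 2 arrays, and 3 were used here. Per the labels, the authors made the deposited values in Affymetrix Expression Console with RMA, as a core-exon analysis. The deposited RMA output of the authors was taken here as log2 values. No source used here gives the base of the logarithm, the tool's version or the genome build, so folds rest on base 2. RMA corrects background and then normalizes and summarises probes over arrays together, so values of different arrays are not independent and can be identical.

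Of 29170 probe sets, 15310 had 1 gene symbol in the platform annotation, 323 had several and 13537 had none; the last groups were left out. Gene identifiers of 15279 were found in the GRCr8 gene table, and no symbol changed. A gene was represented by its brightest probe set, and genes whose mean reached the 30th percentile (5.72) were compared. Differences of log2 values were counted at 1.5-fold, and no p-value was computed. The procedure was run on simulated data with assumed noise and planted differences. With 1 array per group the true noise is unknown, so that run does not bear on how sure the 1.5-fold counts are. Precision is limited by the number of arrays.

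The members, gene lists, limits and rules were chosen with earlier results of these data known. The lists overlap in some genes, such as Fkbp4, Sesn1 and Per1, so their counts are not independent. The rule named all 10 genes, up to 4 genes per list and comparison with the largest differences, any relative on the list of families, Fbxo32, Trim63, Per1 and Dbp, and the 2 nearest genes in pattern, passing over uncharacterised loci. Pdk4, Bcl6, Pik3r1, Ampd3, Sesn1, Sesn3, Ccng2, Dusp1, Fam107a, Mstn, Cdkn1c, Rhob, Bcat2, Bckdk, Mccc1, Nr3c2, Lyz2, C1qa, Csf1r and the DN minus TS examples were named after their values were seen. So were Fabp4, Sod2 and Bnip3. Alternatives were centring each array, removing a loess trend (span 0.3), quantile normalization, a linear offset of 32, a filter at the 50th percentile or none, the mean of probe sets, and a 2-fold limit. Python 3.11.15, numpy 2.4.6, pandas 2.3.3, statsmodels 0.14.6 and matplotlib 3.10.9 were used.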

Additional observations from a re-analysis of the deposited data

How the results depend on the processing

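Over centring, loess, quantile normalization, the linear offset and the mean of probe sets, all 150 recomputed differences of the 10 genes stayed on the same side of the 1.5-fold limit, and none past it changed sign. Each of the 10 genes had 1 probe set, so the mean of probe sets could not change them. TS minus Ct ranged from 1.09 to 1.22 for Fkbp5, from 0.61 to 0.75 for Zbtb16 and from 0.59 to 0.72 for Klf15, and DN minus Ct from -0.98 to -0.91 for Zbtb16 and from -0.81 to -0.76 for Tsc22d3. At a 2-fold limit, 0 of the 10 genes were lower in DN than in Ct and 1, Fkbp5, was higher in TS, while all 4 stayed past it in DN minus TS. With the filter at the 50th percentile Klf15 dropped out, so that 2 of the genes were higher in TS than in Ct, in place of 3, and 3 were lower in DN than in TS, in place of 4. Of 672 recomputed counts of the other lists, 64 moved by over 1.5 times, many of them at the 2-fold limit. No paired analysis was possible because each group has 1 array.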
